A study of Mus musculus with 2 samples.

Results

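A set of 9 genes by which striatal projection neurons are recognised was described in the cerebral cortex: Ppp1r1b, Drd1, Drd2, Adora2a, Rgs9, Rarb, Six3, Isl1 and Pde10a. They were listed by name and make up 9 of the 21938 protein-coding genes of the GENCODE M21 annotation on the mouse build mm10. Each gene was taken with its body and 10 kb on either side, a window that sums to 1.23 Mb over the 9 genes, and with every annotated transcript start and the 500 bases on either side of it. The assay was DNase-seq. It maps open chromatin by digesting nuclei with DNase I, which cuts where neither nucleosomes nor other proteins shield the DNA, and by sequencing the cut ends. Left cerebral cortex was taken from female B6CASTF1/J mice, a hybrid cross of a C57BL/6 and a CAST strain, 18 to 20 months old, with no treatment named in the labels. There was 1 group of 2 libraries, called library 1 and library 2 by their replicate numbers, from separate tissue samples under the same donor identifier. The labels do not say that these came from separate animals, so the spread between the libraries may be technical. With a single group the data hold no contrast to test, and every value below is a description of these 2 libraries.

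Striatal projection neurons are the inhibitory output cells of the striatum, and they fall into a class with the dopamine receptor Drd1 and a class with Drd2 and the adenosine receptor Adora2a. These receptors raise or lower cyclic AMP, and Ppp1r1b, Pde10a and Rgs9 act further along that path, while Rarb, Six3 and Isl1 are transcription factors used as striatal neurons form. The cortex is known for its glutamatergic projection neurons and has these genes active in fewer cells or at lower levels, although Drd1 and Ppp1r1b are known in its deep layers. In whole tissue, fewer cells with open chromatin and less open chromatin per cell cannot be told apart.

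Promoters of 8 of the 9 genes were open in both libraries, and that of Six3 was closed in both. Open means that at least 1 peak of the authors' longer list lay within 500 bases of an annotated start, and among all protein-coding genes 63.6% met this in both libraries. In the groups of genes with a similar CpG ratio that hold the 9 genes, described below, the share ran from 81.4% to 96.8%. A promoter signal below is the authors' signal value of the strongest such peak, on their own scale, followed by the mean and SD (n = 2). In both libraries Pde10a was the highest and Rgs9 the next, followed by Drd1, Ppp1r1b, Rarb, Adora2a, Isl1 and Drd2. The values of neighbours in this order did not overlap between the libraries. The means of Drd1 and Ppp1r1b (2.41 and 2.05) nevertheless lay closer together than the SD of Ppp1r1b. Those of Adora2a and Isl1 (0.901 and 0.595) lay closer than the SD of Adora2a. In these 2 pairs the order was the same in each library, but the size of the difference was within that spread. No order was tested. The median over the 9 genes was 1.34 in library 1 and 1.75 in library 2, against 1.31 and 1.55 over all protein-coding genes. Among protein-coding genes whose promoters were open in both libraries the medians were 3.13 and 3.47, and of the 9 genes only Pde10a and Rgs9 stood above them.

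**Figure D1:**
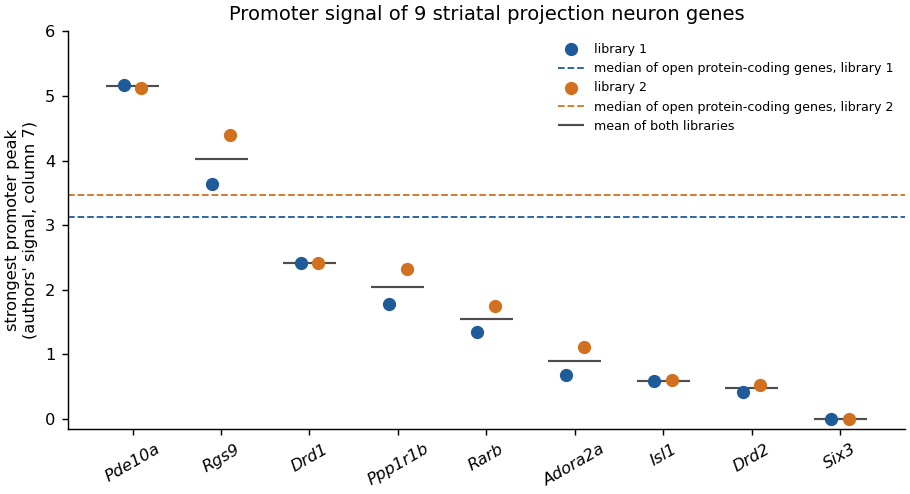
Promoter signal of each gene (vertical axis, the authors' signal of the strongest peak near an annotated start) in library 1 and library 2, with the mean of both as a bar and the medians of protein-coding genes open in both libraries (3.13 and 3.47) as dashed lines. Pde10a and Rgs9 lie above both lines, 6 genes lie below them, and Six3 lies at 0.

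Marker genes of cortex and of other tissues were read by the same rule, which 63.6% of all protein-coding genes met in both libraries. All 11 genes of cortical projection neurons had an open promoter in both libraries. Their median promoter signal was 1.57 in library 1 and 1.73 in library 2, against 1.31 and 1.55 over all protein-coding genes. For the 9 genes the medians were 1.34 and 1.75, so signal did not set the cortical markers apart from them. Of genes used outside the brain, such as those of liver, heart and skin, 1 of 8 had an open promoter in both libraries (Tnnt2, a heart troponin). Of hindbrain and midbrain genes 1 of 7 did (Tph2), with 1 open in library 1 and 5 in library 2. The counts were 4 of 7 for interneurons (4 and 6 by library), 2 of 5 for cholinergic neurons, where Chat, the enzyme that makes acetylcholine, was at 0 in both, and 3 of 7 for glia and vessels (3 and 5). The median promoter signal of the glia and vessel list was 0 in library 1 and 0.333 in library 2. Pdgfra of that list, with 1.93 and 2.39, nevertheless stood above the cortical median. The part of striatal tissue carried over in dissection was not tested. Library 1 listed 132054 peaks and library 2 139799. Read numbers are not analysed here, so the depth behind each signal is unknown.

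The receptor genes ranged from an open Drd1 to a barely open Drd2. Drd1, which encodes the dopamine receptor that stimulates cyclic AMP (ENSMUSG00000021478.6, chr13:54051183-54055705, minus strand), had a promoter signal of 2.41 in library 1 and 2.42 in library 2 (2.41 ± 0.00566). Both libraries placed this peak at chr13:54055641-54055860, centred 46 bases upstream of the gene's 5′ end, and called it with the same edges. A second weak peak within 500 bases of the inner start of transcript Drd1-203, centred 351 bases from it in library 1 and 391 in library 2, had a signal of 0.476 in library 1 and 0.512 in library 2. Library 1 also listed a peak 286 bases upstream (0.476) and 1 of signal 0.633 outside genes, 7816 bases upstream, neither of which overlapped a peak of library 2. The Drd1 window thus held 4 peaks in library 1 and 2 in library 2, which put it at percentile 76.8 and 46.5 of peak count among the 200 protein-coding genes whose windows are closest in length.

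The Drd1 promoter is printed because 45 of its bases lay in footprints of both libraries, out of 46 in library 1 and 68 in library 2. A footprint is a short stretch inside an open region with fewer cuts than its surroundings, called by the authors at a false discovery rate of 0.01. The letters are the reference genome GRCm38 (mm10), which is not the CAST sequence, written 5′ to 3′ on the strand of the gene, with capitals for bases inside footprints of both libraries. The transcribed end of the peak is left out, so the stretch is chr13:54055706-54055860 on the minus strand.
Drd1 promoter: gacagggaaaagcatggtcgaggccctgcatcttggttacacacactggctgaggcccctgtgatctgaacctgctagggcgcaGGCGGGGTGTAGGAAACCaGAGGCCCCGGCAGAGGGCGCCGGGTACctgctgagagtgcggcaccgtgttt
Capitals form 2 blocks, 18 and 27 bases long, with 1 base between them that was not in footprints of both libraries.

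Drd2 encodes the dopamine receptor that inhibits cyclic AMP (ENSMUSG00000032259.8, chr9:49340627-49408177, plus strand, 1 annotated start). Its promoter signal stood at 0.422 in library 1 and 0.524 in library 2 (0.473 ± 0.0723), the lowest of the 8 open promoters, at percentile 38.0 and 37.9 of promoter signal among all protein-coding genes. A peak in a Drd2 intron, centred 55574 bases from the start, had a signal of 0.436 in library 1 and 0.894 in library 2 (0.665 ± 0.324). It was thus the stronger of the 2 sites in both libraries. Of the 81 matched peak pairs of the 9 genes it was 1 of 2 whose signals differed by more than 2-fold between the libraries (log2 ratio of library 2 over library 1, 1.04). The share of such pairs among all peaks was not counted. These 2 sites were the only ones that both libraries listed in the Drd2 window. Library 1 added 4 weak intron peaks with signals of 0.231 to 0.470, and library 2 added 1 of 0.364, so that the window held 6 peaks and 3.

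Both Drd2 sites are printed, on the plus strand of mm10 with capitals as above, to show how their footprints differ. The promoter stretch is chr9:49340273-49340460 and the intron stretch chr9:49396101-49396300.
Drd2 promoter: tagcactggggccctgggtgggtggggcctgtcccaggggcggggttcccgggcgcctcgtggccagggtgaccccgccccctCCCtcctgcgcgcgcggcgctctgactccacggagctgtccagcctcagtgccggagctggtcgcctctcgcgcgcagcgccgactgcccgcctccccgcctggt
Drd2 intron: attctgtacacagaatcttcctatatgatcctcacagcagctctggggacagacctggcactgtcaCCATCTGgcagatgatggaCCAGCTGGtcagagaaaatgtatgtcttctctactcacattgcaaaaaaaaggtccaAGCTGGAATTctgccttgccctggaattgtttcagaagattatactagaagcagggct
The promoter had a G+C content of 77.1% and 20 CpG dinucleotides, and just 3 of its bases were in footprints of both libraries (7 in library 1, 23 in library 2). The intron site had 45.5% and no CpG, and 25 bases in footprints of both. The letters CAGCTG, an E-box of the kind bound by basic helix-loop-helix factors, stood at positions 87 to 92 of the intron stretch, counted from its first base, and CAGATG at 68 to 73 on the other strand, both wholly inside footprints of both libraries. A second CAGATG at 75 to 80 lay outside them. On either strand CAGCTG was found in 18.7% of the 200-base windows centred on library 1 peaks away from starts and CAGATG in 25.4%, so that such matches are common. The promoter stretch held GGGCGG, the GC box, at 38 to 43 and, on the other strand, at 75 to 80, with no base in footprints of both. These letters were found in 46.3% of the 200-base windows centred on library 1 promoter peaks.

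Adora2a, the adenosine receptor that stimulates cyclic AMP in neurons with Drd2 (ENSMUSG00000020178.6, chr10:75316877-75334784, plus strand), had a promoter signal of 0.681 in library 1 and 1.12 in library 2 (0.901 ± 0.312). The peak covered the start of Adora2a-203 and lay within 500 bases of that of Adora2a-201, and the starts 6243 and 7981 bases further in had no peak and no base with a false discovery rate under 0.05. It was the only peak in the window of 37908 bases in either library. This placed Adora2a at percentile 14.5 and 13.0 of peak count among genes of nearest span, the lowest of the 9 genes in both libraries.

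Among the genes that act downstream of the receptors, Pde10a and Rgs9 had the strongest promoters of the 9 genes and Ppp1r1b the densest surroundings. Pde10a, a phosphodiesterase that breaks down cyclic AMP and cyclic GMP (ENSMUSG00000023868.17, chr17:8525372-8986648, plus strand), had a promoter signal of 5.17 in library 1 and 5.12 in library 2 (5.15 ± 0.0384), at percentile 84.4 and 82.3 of all protein-coding genes. Its window held 46 peaks in library 1 and 50 in library 2, of which 38 and 39 were shared, and 84 and 110 footprints inside peaks. Per length this was 0.956 and 1.04 peaks per 10 kb, at percentile 90.5 and 92.2 among genes of nearest span.

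Openness at Pde10a was spread over 3 of its promoter regions. The 13 annotated starts fell into an open pair at the 5′ end (5.17 and 5.12), a pair 1429 and 1654 bases further in (0.987 and 0.894) and a pair at 276321 and 276407 bases (1.29 and 1.57), while the other 7 starts had no peak in either library. The strongest peak away from any start lay in an intron at chr17:8858741-8858940, 333469 bases from the 5′ end, with 3.89 in library 1 and 3.10 in library 2 (3.50 ± 0.559). A further intron peak at 88989 bases had 2.91 and 2.78. At 252539 bases an intron peak had 0.592 in library 1 and 1.41 in library 2 (log2 ratio 1.25), the other matched pair with more than a 2-fold difference. The window also takes in the promoter of the neighbour 1700010I14Rik, with a peak of 2.39 and 2.06 that is not counted as a Pde10a promoter.

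The 5′ promoter of Pde10a is printed as the strongest of the 9, at chr17:8524921-8525140 on the plus strand of mm10, with capitals as above.
Pde10a promoter: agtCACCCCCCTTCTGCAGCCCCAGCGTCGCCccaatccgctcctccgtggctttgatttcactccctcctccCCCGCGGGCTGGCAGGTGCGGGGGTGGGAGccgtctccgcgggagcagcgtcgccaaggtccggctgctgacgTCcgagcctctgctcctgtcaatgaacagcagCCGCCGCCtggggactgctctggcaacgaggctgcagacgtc
Footprints covered 94 bases of it in library 1 and 90 in library 2, with 69 in both, mainly as blocks of 29 and 30 bases.

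Rgs9, a regulator of G protein signalling that shortens receptor signals (ENSMUSG00000020599.13, chr11:109225355-109298129, minus strand), had a promoter signal of 3.64 in library 1 and 4.39 in library 2 (4.02 ± 0.530). This peak served the 3 starts within 63 bases of the 5′ end, and the starts at 47978 and 51164 bases, Rgs9-202 and Rgs9-205, had none. The strongest peak away from starts, in an intron at chr11:109259001-109259240, had the same edges in both libraries and a signal of 1.43 and 1.44 (1.44 ± 0.00971). Library 1 listed 11 peaks over Rgs9 and library 2 listed 8, and 8 of each were shared, so that all library 2 peaks overlapped one of library 1.

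Ppp1r1b encodes a phosphatase inhibitor that integrates dopamine signals (ENSMUSG00000061718.12, chr11:98348404-98357796, plus strand). Its promoter signal was moderate, 1.78 in library 1 and 2.32 in library 2 (2.05 ± 0.379). The inner start of transcript Ppp1r1b-207, at 6192 bases, had a pair of peaks within 500 bases in each library, a nearer one of 1.14 in library 1 and 1.46 in library 2 and a farther one of 1.47 and 1.15, so that a different one was the stronger in each library. The 4 starts in between had no peak and no base under the false discovery rate limit. The window held 11 peaks in library 1 and 18 in library 2, or 3.74 and 6.12 per 10 kb, at percentile 97.5 and 99.5 among genes of nearest span. Bases with a false discovery rate under 0.05 made up 10.9% and 18.5% of it, against a median of 2.69% and 3.09% over all protein-coding genes.

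The strongest site near Ppp1r1b lay outside the gene, at chr11:98342661-98342900 and 5623 bases upstream of the start, with a signal of 5.42 in library 1 and 6.17 in library 2 (5.80 ± 0.525). It was thus stronger than the promoter in both libraries, and called with the same edges in each. A pair of further upstream peaks, centred 2973 and 2027 bases from the start in library 1, had signals of 2.13 and 1.56 there and 2.84 and 1.42 in library 2. Ppp1r1b lies close to other genes, so not all of these peaks need be its own. Stard3 starts in the window, with promoter peaks of 2.13 and 2.47 near its start, and Neurod2, a transcription factor of cortical projection neurons, has its start 13133 bases from the centre of the strongest upstream peak.

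All 11 peaks of library 1 at Ppp1r1b were shared, and 11 of the 18 of library 2. The strongest unshared peak of library 2 over the 9 genes was among the rest. It lay at chr11:98338721-98338940 near the upstream edge of the window and had a signal of 2.32. In library 1 the strongest unshared peak lay in a Pde10a intron, with 0.660. Peaks that overlapped the gene body numbered 5 in each library, so the difference in count lay mostly in the flanks. Of these, a library 1 peak of 0.892 crossed the 5′ end with its centre outside the body. Library 2 had an unshared peak of 0.703 inside the body. Library 2 also listed more peaks than library 1 at a number of other genes, here named after their values were seen. The neighbour Neurod2 had 2 peaks in library 1 and 19 in library 2, Sp9 had 2 and 18, Zfp503 had 4 and 16, and En2, a gene of the hindbrain and midbrain, had 0 and 12. Others went the opposite way, such as Gad2 with 10 and 2 and Ppp3ca with 22 and 15. The share of all genes with more peaks in library 2 was not counted. Over the 11 cortical projection neuron genes the median was 1.36 per 10 kb in library 1 and 4.71 in library 2, although Cux1 of that list had 37 and 35 peaks. The part of this in the Ppp1r1b counts was not tested.

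The upstream site of Ppp1r1b and the promoter of Rgs9 are printed because long footprints in both libraries recur in them as at Drd1. The stretches are chr11:98342661-98342900 on the plus strand and chr11:109298130-109298320 on the minus strand of mm10, with capitals as above.
Ppp1r1b upstream: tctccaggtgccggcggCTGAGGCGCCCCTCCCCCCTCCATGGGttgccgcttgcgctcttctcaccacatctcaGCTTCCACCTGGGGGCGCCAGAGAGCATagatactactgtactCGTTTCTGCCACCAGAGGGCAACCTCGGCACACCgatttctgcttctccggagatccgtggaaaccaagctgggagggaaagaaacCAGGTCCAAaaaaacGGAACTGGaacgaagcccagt
Rgs9 promoter: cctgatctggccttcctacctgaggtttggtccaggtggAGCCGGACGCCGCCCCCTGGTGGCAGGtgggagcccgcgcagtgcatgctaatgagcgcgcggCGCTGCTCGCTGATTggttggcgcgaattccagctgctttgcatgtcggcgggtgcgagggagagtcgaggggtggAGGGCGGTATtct
Footprints of both libraries covered 106 of the 240 bases at Ppp1r1b, in blocks of up to 34 bases, and 52 bases of the Rgs9 stretch. A 12-position consensus of the insulator protein CTCF, searched on both strands after these letters had been seen, was matched exactly at positions 127 to 138 of the Ppp1r1b stretch and 51 to 62 of the Rgs9 stretch. With 1 mismatch it was matched at 80 to 91 of the Ppp1r1b stretch and at 110 to 121 of the Drd1 stretch. All 12 bases of each of these 4 matches lay in footprints of both libraries. The stretches had been printed for their footprints, and how often matches in other peaks lie in footprints was not counted. Peaks of Pde10a also held exact matches, which were not examined for footprints. Among the other strongest peaks searched, the intron peak of Rarb matched with 1 mismatch and had 0 of those bases in footprints of both. An exact match was found in 4.36% of all library 1 peaks and 4.19% of all library 2 peaks, taken as 200-base windows, and in 6 of the 105 and 6 of the 112 peaks of the 9 genes (5.71% and 5.36%). With up to 1 mismatch the shares were 13.6% and 13.4% of all peaks and 11.4% and 9.82% of the peaks of these genes, so the genes as a set held the consensus about as often as other peaks. A match is a description of letters and does not show that the protein was bound.

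Of the 3 transcription factor genes, Rarb was open at an inner promoter, Isl1 faintly open and Six3 closed. Rarb, the beta receptor for retinoic acid (ENSMUSG00000017491.9, chr14:16430839-16819156, minus strand), had a promoter signal of 1.34 in library 1 and 1.75 in library 2 (1.54 ± 0.286). All of this lay at the 5 starts between 243329 and 244111 bases into the annotated gene, among them the protein-coding Rarb-201 and Rarb-207. The starts of Rarb-203 and Rarb-204, at the far 5′ end, had no peak in either library and no base with a false discovery rate under 0.05. A start of the antisense gene Gm48162 lies 30 bases from the centre of the open peak, and the assay does not tell which of the genes a shared open region belongs to.

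Retinoic acid receptors are known to bind repeated short motifs, and the inner Rarb promoter is the textbook case of a promoter that answers to its own receptor. The letters GTTCAC, searched after the data were examined, stood in direct repeat with 5 bases between the copies, 15 to 31 bases after the start of Rarb-201. The stretch is chr14:16575507-16575533 on the minus strand of mm10, within the untranslated region of Rarb-201 and Rarb-207, and here capitals mark the repeated letters.
Rarb repeat: gaaggGTTCACcgaaaGTTCACtcgca
It lay inside a peak in each library, yet just 3 of its bases were in a footprint in library 1 and 0 in library 2. The same repeat, on either strand, was found in 2 of 32851 RefSeq promoter windows of GRCm38.p6 (0.00609%), those of Rarb and Gm41579. The repeat was sought at Rarb and only these exact letters were counted, so the share does not describe other forms of the motif.

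The rest of Rarb held many weak intron sites. Its window had 23 peaks in library 1 and 25 in library 2, or 0.563 and 0.612 per 10 kb, at percentile 49.2 and 53.5 among genes of nearest span. The strongest away from starts lay in an intron, 299395 bases from the 5′ end in library 1, with 1.63 there and 1.37 in library 2 (1.50 ± 0.182). It was stronger than the inner promoter in library 1 and weaker in library 2. The window overlaps the neighbour Top2b.

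Isl1, a LIM homeodomain factor of neurons with Drd1 and of cholinergic neurons (ENSMUSG00000042258.13, chr13:116298281-116309689, minus strand), had a promoter signal of 0.585 in library 1 and 0.604 in library 2 (0.595 ± 0.0134). The peak lay within 500 bases of 3 of its 5 starts, and the starts at 3292 and 6338 bases had none. This was the only peak of the window in library 1, and library 2 added weak peaks of 0.419 and 0.395 further upstream. Few bases passed a stricter limit: 273 bases in library 1 and 687 in library 2 had a false discovery rate under 0.05, but only 5 and 38 had one under 0.001. The authors' shorter peak lists held no peak at Isl1 in either library.

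Six3, a homeodomain factor of neurons with Drd2 (ENSMUSG00000038805.10, chr17:85613608-85629302, plus strand), had none of its 3 starts within 500 bases of a peak, a promoter signal of 0 in both libraries. Around these starts a single base in library 1 and none in library 2 had a false discovery rate under 0.05. The closed state was uncommon for a promoter of its composition. The ratio of observed to expected CpG dinucleotides within 500 bases of its starts reached 0.713, and of the 8632 protein-coding genes at or above this value 96.5% had an open promoter in both libraries and 182 had none in either. Rarb, Isl1, Drd2, Adora2a and Pde10a, which were open, lay between 0.731 and 0.779, and Rgs9, Drd1 and Ppp1r1b lay lower, at 0.653, 0.586 and 0.533. Drd2, Adora2a, Isl1, Six3 and Pde10a fell into the same of 10 equal groups of genes ordered by this ratio, in which the median promoter signal was 3.46 in library 1 and 3.78 in library 2. Only Pde10a of these 5 reached it, and through its 5′ start (5.17 and 5.12), where the ratio was 0.648. The inner start that gave Pde10a its ratio of 0.731 had a signal of 1.29 in library 1 and 1.57 in library 2, below the median.

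**Figure D2:**
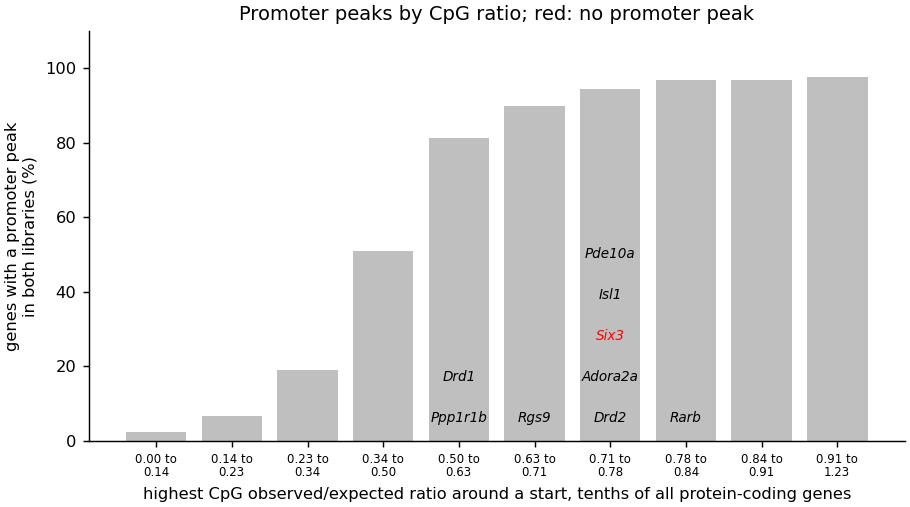
Share of protein-coding genes with an open promoter in both libraries (vertical axis, %) in 10 equal groups by the highest ratio of observed to expected CpG around a start (horizontal axis), with the 9 genes written in their groups. The share was 81.4% in the group with Ppp1r1b and Drd1 and 94.6% in the group with Six3, the 1 gene in red, which had no promoter peak.

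Six3 did have an open site outside the gene. A peak at chr17:85633741-85633920, 12800 bases from the nearest Six3 start and past the 3′ end of the gene, had a signal of 1.31 in library 1 and 2.25 in library 2 (1.78 ± 0.668), with the same edges in both. The only other peaks in the window were an exon peak of 0.429 in library 1 and another of 0.506 in library 2, at different places. The distal site is printed as the one open region that both libraries listed near Six3, on the plus strand with capitals as above.
Six3 distal: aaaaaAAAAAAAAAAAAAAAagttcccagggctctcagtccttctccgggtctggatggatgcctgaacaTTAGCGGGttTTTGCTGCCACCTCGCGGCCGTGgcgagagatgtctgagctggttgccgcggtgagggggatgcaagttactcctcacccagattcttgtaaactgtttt
Footprints of both libraries covered 46 of its 180 bases, of which a block of 15 lay in a run of A and the longest, 23 bases, followed further along.

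**Figure D3:**
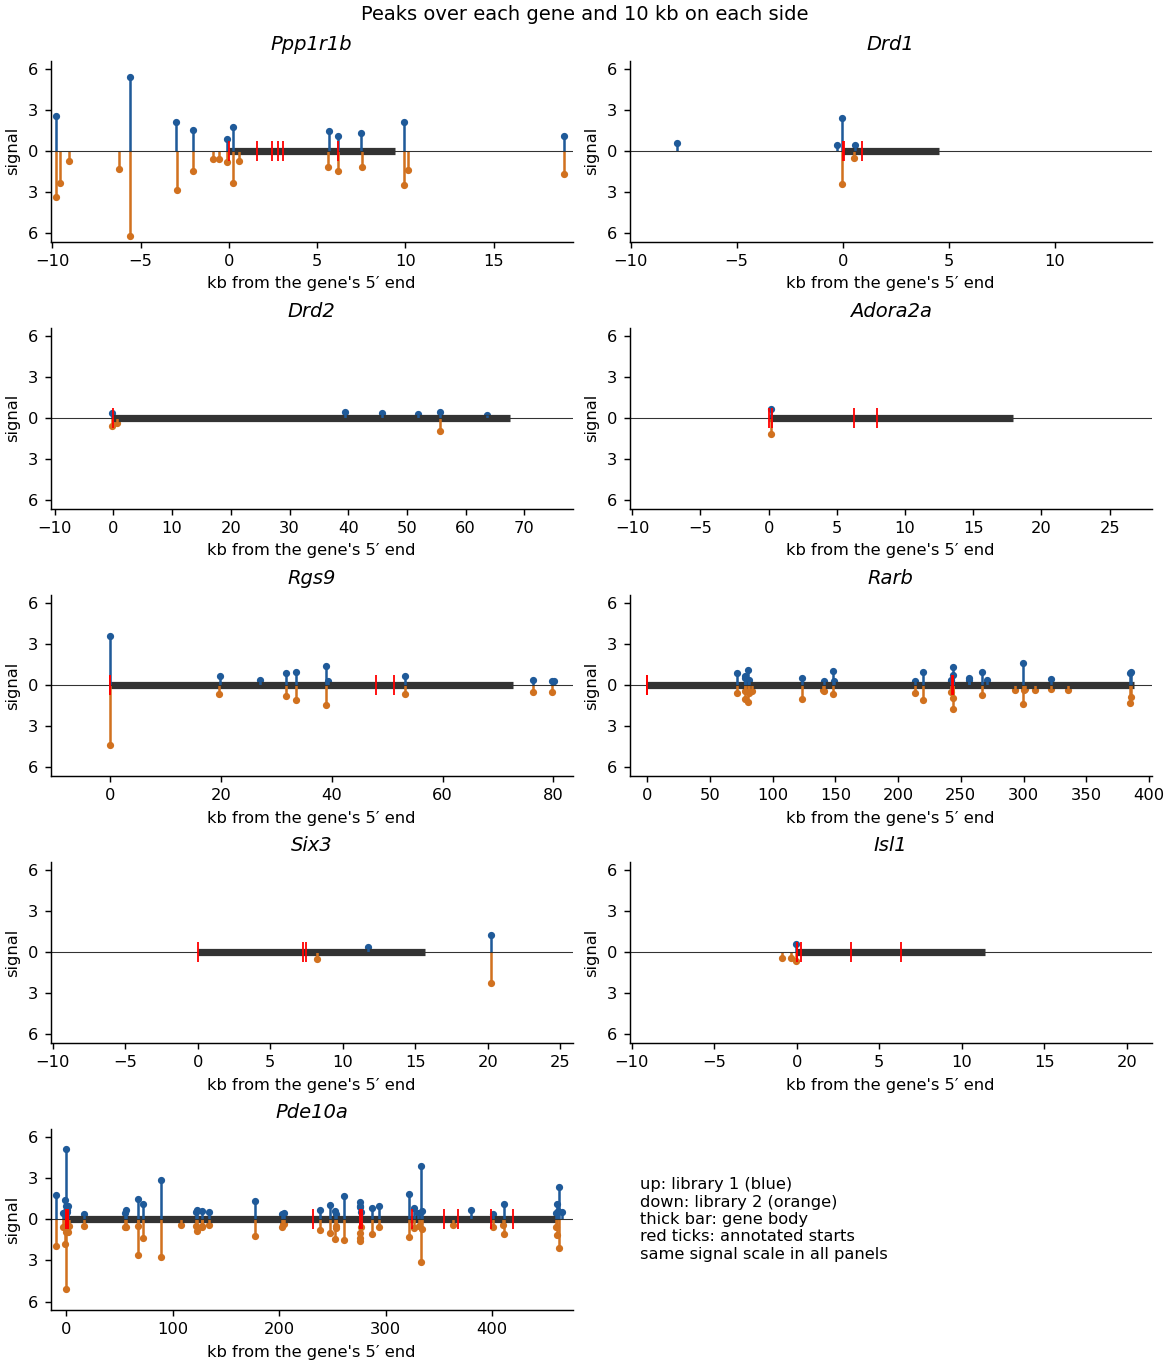
All peaks of each window, which is the gene with flanks of 10 kb, by distance from the gene's 5′ end in kb (horizontal axis) and the authors' signal (vertical axis, same scale in all panels), library 1 upward and library 2 downward, with the gene body as a thick bar and annotated starts as red ticks. The upstream site of Ppp1r1b (5.42 and 6.17) and the Pde10a promoter (5.17 and 5.12) are the tallest, and Adora2a shows 1 peak.

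Starts of the same gene differed more than the libraries did. Over all 9 genes 25 of 47 annotated starts were open in both libraries, against 51.7% of the starts of all protein-coding genes, and the same 25 had one in each library alone. None of the 47 starts was open in 1 library only. Drd2 was open at its 1 start and Drd1 at all 3 of its starts, Six3 at none of 3, and the other 6 genes had both open and closed starts. Many starts lie within 500 bases of each other and share a peak, so these counts are not of separate promoters.

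**Figure D4:**
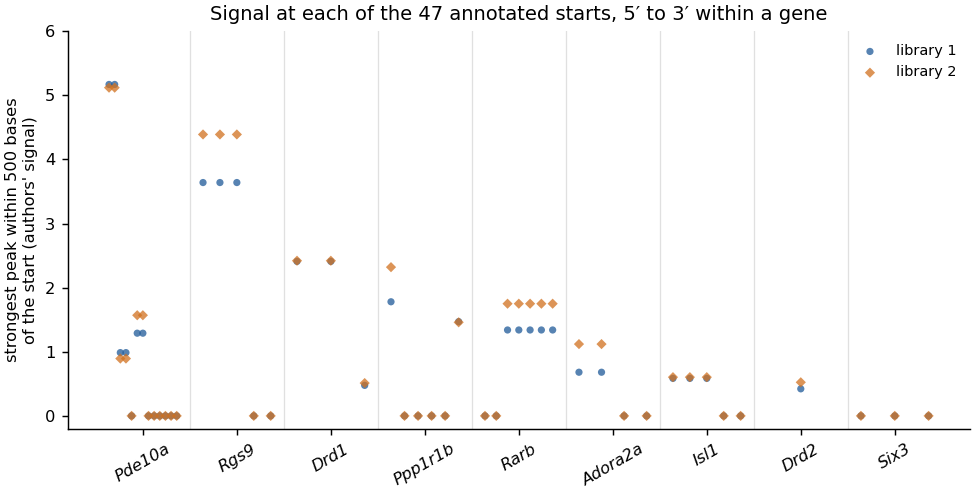
Signal of the strongest peak within 500 bases of each of the 47 annotated starts (vertical axis, the authors' signal), ordered from 5′ to 3′ within each gene, for library 1 and library 2. At 25 starts both libraries have a peak and at the rest neither does, and Rarb is at 0 at its 5′ starts and at 1.34 and 1.75 further in.

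Peaks over the 9 genes were shared between the libraries about as often as peaks elsewhere. Their windows held 105 peaks in library 1 and 112 in library 2, and 83 of each overlapped a peak of the other library by at least 1 base, which is 79.0% and 74.1%, against 77.8% and 73.2% of all peaks. The signal of shared peaks had its median at 0.926 in library 1 and 0.968 in library 2, and that of unshared peaks at 0.442 and 0.456. By their centres most peaks lay in introns, 65 in library 1 and 70 in library 2, with 20 in each at promoters, 5 in each in exons and 15 and 17 outside genes. Promoter here means within 500 bases of a start of any gene, so peaks at the neighbours Stard3 and 1700010I14Rik are among the 20. Pde10a and Rarb, the longest of the 9, held most of them. In 81 matched pairs the median log2 ratio of library 2 over library 1 was 0.10, and 48 were stronger in library 2. The same values were not taken over all matched peaks, so this is not known to be particular to the 9 genes.

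Footprints were found in 85 of the 105 peaks in library 1 (81.0%) and 91 of the 112 in library 2 (81.2%), against 76.1% and 78.9% of all peaks. The genes held 195 and 235 footprints inside peaks. Per length the set was not rich in peaks: the median over the 9 genes was 0.685 peaks per 10 kb in library 1 and 0.816 in library 2, against 0.779 and 0.829 over all protein-coding genes. The range ran from 0.264 in both libraries at Adora2a to 3.74 and 6.12 at Ppp1r1b. These comparisons do not match genes for length. Set against genes of nearest span, the median percentile of peak count over the 9 genes was 49.2 in library 1 and 46.8 in library 2.

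Other genes of the same neurons and path were open to differing degrees. Of 16 further genes of striatal projection neurons 13 had an open promoter in both libraries, against 63.6% of all protein-coding genes. Their median promoter signal, 0.793 in library 1 and 1.14 in library 2, was below the 1.31 and 1.55 of all protein-coding genes. Meis2, a homeodomain factor, was among the highest, with 1.72 in library 1 and 2.15 in library 2 (1.93 ± 0.305). The lowest were Chrm4, a muscarinic receptor, at 0 in both libraries, and Zfp503, a zinc finger factor, at 0 in library 1 and 0.444 in library 2.

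Of 19 genes that carry dopamine and adenosine signals to cyclic AMP and its targets 18 were open in both libraries, against 63.6% of all protein-coding genes. Their median promoter signal was 2.57 in library 1 and 2.96 in library 2, against 1.31 and 1.55 over all protein-coding genes. By the mean of both libraries the highest was Cdk5, a kinase that phosphorylates the Ppp1r1b protein, with 9.31 in library 1 and 8.40 in library 2 (8.86 ± 0.640). Ppp3ca, of the phosphatase calcineurin, had 8.04 and 8.84 (8.44 ± 0.564) and was the highest in library 2. Prkaca, a catalytic subunit of protein kinase A, had 8.55 and 8.32 (8.44 ± 0.167), and these 3 means lay closer together than the SD of Cdk5. The lowest were receptors: Drd3 at 0 in both libraries and Drd5 at 0.429 and 0.444. Many of these signalling genes are used in most neurons.

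**Figure D5:**
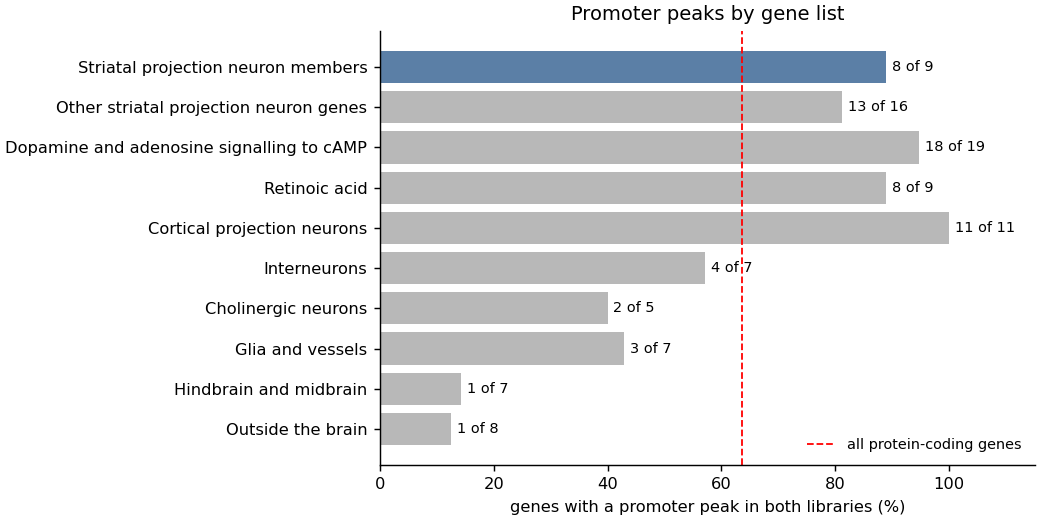
Share of genes with an open promoter in both libraries (horizontal axis, %) for the 9 genes and the other lists, with the count of open genes of all genes beside each bar and the share of all protein-coding genes, 63.6%, as a dashed line. The 9 genes stand at 8 of 9, cortical projection neuron genes at 11 of 11 and genes used outside the brain at 1 of 8.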

How the data were processed

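DNase-seq files of 2 libraries of 1 group were used, as deposited and on mm10. Per the deposited readme the authors made peaks, footprints and a per-base false discovery rate table for each library from its own alignments, without pooling. Not given in the sources used here are the aligner, callers, versions, thresholds and treatment of CAST reads. Each peak's signal as deposited by the authors (column 7) has no stated normalization. Their per-base q-value, a false discovery rate, lists values under 0.05 only, and the deposited footprints hold a q-value of 0.01 throughout, read as their threshold.

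Starts and gene bodies came from GENCODE M21, and sequences from GRCm38.p6, with which all 32851 RefSeq promoter sequences compared were equal. RefSeq promoter entries matched 7 of the 9 genes. A gene's promoter signal was its strongest peak within 500 bases of any start, or 0. An overlap of 1 base or more made peaks shared, percentiles of peak count were taken among the 200 protein-coding genes of closest window length, and those of promoter signal among all 21938. Named were all 9 genes, for each the strongest promoter peak and the strongest peak over 500 bases from any start, the strongest unshared peak of each library, and the 2 genes with the highest and the lowest promoter signal of each list of related genes. An item that this rule takes is not reported here. Members and lists were chosen with earlier results of these data known. No test was made. Promoter calls, window counts and sharing were tested on simulated data. Alternatives were the shorter lists, stronger peaks, other windows, flanks, overlaps and limits, and each library alone. Python 3.11.15, numpy 2.4.6, pandas 2.3.3 and matplotlib 3.10.9 were used.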

Additional observations from a re-analysis of the deposited data

How the results depend on the processing

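The count of open promoters among the 9 genes was 7 in the authors' shorter lists, where Isl1 was lost, and 6 in peaks at or above the median signal, where Drd2 and Isl1 were lost, and 8 in every other setting. With windows of 2000 bases Six3 had a promoter signal of 0 in library 1 and 0.506 in library 2. Peaks over the genes, 108.5 as the mean of both libraries, were 64 in the shorter lists, 60 at or above the median signal and 169.5 with flanks of 50 kb. The median count per gene, 4.5, was 1 at or above the median signal and 11 with flanks of 50 kb, where Ppp1r1b had 17 peaks in library 1 and 40 in library 2, against 5 in each with no flank. The shared share, 76.6%, was 86.0% in the shorter lists, 87.6% at or above the median signal and 61.8% where at least 50% of both peaks had to overlap. Bases under the false discovery rate limit, 30838 as a mean, were 16767 under 0.001. With each library alone these totals stayed within 1.5 times, and the shared share needs both. Leaving aside the values of each library alone, 41 of 45 promoter signals of single genes kept the same value. The signal is that of the strongest peak, which does not change when weaker peaks are dropped, so this is a weak check. Of 36 peak counts of single genes 14 stayed within 1.5 times. No paired analysis was possible because there is a single group. Signals carry no read counts, so the depth sets no interval here.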

Other observations

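Genes of the retinoic acid path, in which Rarb acts, differed in promoter signal. Of 9 such genes 8 had an open promoter in both libraries, against 63.6% of all protein-coding genes. Their median promoter signal, 1.03 in library 1 and 1.34 in library 2, was below the 1.31 and 1.55 of all protein-coding genes. The highest were Rxrb, a partner receptor of the retinoic acid receptors, with 5.66 in library 1 and 6.11 in library 2 (5.88 ± 0.322), and Rarg, the gamma receptor, with 3.43 and 4.33 (3.88 ± 0.635). The lowest were Cyp26b1, an enzyme that breaks down retinoic acid, with 0.504 in library 1 and 0 in library 2, and Crabp1, a retinoic acid binding protein, with 0.320 and 0.401. Rarb, at 1.34 and 1.75, thus lay above the list's median in each library and below Rarg, and Rara, the alpha receptor, had 1.03 and 1.34.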
